A study of Mus musculus with 6 samples.

Results

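Distal regions that held a Lsd1 peak only in cells overexpressing LSD1 were examined in C2C12 cells, a mouse myoblast line that forms myotubes on serum withdrawal and can be turned towards adipocytes by an adipogenic cocktail. Peaks of 3 Lsd1 ChIP-seq lists were pooled, overlapping peaks were joined, and joined regions were kept if only the LSD1(OE) list contributed a peak and if their centre lay more than 2000 bp from every annotated transcription start site (TSS). Of 56729 joined regions, 10642 met the rule. They were thus selected on the presence of a peak in 1 list and its absence from the others, which is given here as a description and not as a finding. Regions with a peak in the LSD1(OE) list alone, promoters included, made up 20.8% of all joined regions, and the distal ones made up 24.5% of the 43367 distal regions. A further 1158 regions of the LSD1(OE) list alone lay at promoters and were left aside.

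All cells had differentiated for 1 day. In the myogenic condition, wild-type cells were kept in medium with horse serum. In the adipogenic condition, wild-type cells received fetal calf serum, isobutylmethylxanthine, indomethacin, dexamethasone, insulin, T3 and rosiglitazone. The LSD1(OE) condition used the same adipogenic medium on a stable line carrying Flag-tagged LSD1 behind a tetracycline-dependent promoter, introduced with a lentivirus, selected with G418 and induced with doxycycline from before differentiation onwards. No source used here names doxycycline among the wild-type treatments, so that the line, the drug and the level of LSD1 cannot be told apart. Fixed chromatin was precipitated with a homemade antibody against the C-terminus of Lsd1. A single ChIP library with its input represents each condition, so no difference between conditions has a replicate check and no test between conditions was made. The lists hold positions of binding and no RNA or protein level, so that neither the cell type nor the amount of LSD1 could be checked in them.

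Lsd1 (gene Kdm1a) is a demethylase that removes methyl groups from lysine 4 of histone H3 and, in some settings, from lysine 9. It does not read DNA sequence strongly by itself and is brought to chromatin by partners such as the Rcor corepressors, the NuRD complex with Mta proteins, and zinc finger repressors of the Snai and Gfi families. Sites away from promoters are frequently enhancers, where factors such as the myogenic bHLH proteins, AP-1 and the C/EBP proteins bind short motifs and where Lsd1 is known to silence or restrain activity.

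The sequences below are the bases up to 100 bp on either side of the summit, the point of highest tag pile-up, at members named for their score or for their nearest gene. They show what the searched motifs look like in place. All are from the forward strand of mm10 (RefSeq assembly GRCm38.p6), written 5′ to 3′, with capitals marking each match to the muscle E-box CAGCTG, the AP-1 site TGANTCA, the C/EBP site TTGCNNAA or the glucocorticoid receptor core ACANNNTGT on either strand.
Glis1, intron, chr4:107499688-107499888: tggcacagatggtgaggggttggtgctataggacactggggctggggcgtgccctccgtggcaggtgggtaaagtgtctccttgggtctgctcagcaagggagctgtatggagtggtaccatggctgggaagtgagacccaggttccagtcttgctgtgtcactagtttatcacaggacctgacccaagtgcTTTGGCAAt
Myh9 intron, nearest TSS Apol8, chr15:77784131-77784331: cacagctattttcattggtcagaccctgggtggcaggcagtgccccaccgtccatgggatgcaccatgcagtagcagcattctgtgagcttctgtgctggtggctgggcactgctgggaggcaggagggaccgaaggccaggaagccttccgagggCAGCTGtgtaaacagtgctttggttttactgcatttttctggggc
between genes near AU015791, chr12:105499039-105499239: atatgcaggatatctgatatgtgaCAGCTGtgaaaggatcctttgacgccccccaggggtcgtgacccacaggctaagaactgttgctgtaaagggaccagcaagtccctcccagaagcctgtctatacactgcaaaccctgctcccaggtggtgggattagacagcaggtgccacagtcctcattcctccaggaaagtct
Tead1, intron, chr7:112798019-112798219: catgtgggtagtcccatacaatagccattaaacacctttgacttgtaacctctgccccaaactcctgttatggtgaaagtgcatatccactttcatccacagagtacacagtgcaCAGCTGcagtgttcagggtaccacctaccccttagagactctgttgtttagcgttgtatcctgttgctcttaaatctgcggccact
Smad3, first intron, chr9:63740324-63740524: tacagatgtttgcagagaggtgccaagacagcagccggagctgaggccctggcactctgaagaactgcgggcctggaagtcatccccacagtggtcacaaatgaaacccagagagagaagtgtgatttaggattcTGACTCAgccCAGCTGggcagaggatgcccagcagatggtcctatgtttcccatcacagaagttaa
Pparg, first intron, chr6:115424594-115424794: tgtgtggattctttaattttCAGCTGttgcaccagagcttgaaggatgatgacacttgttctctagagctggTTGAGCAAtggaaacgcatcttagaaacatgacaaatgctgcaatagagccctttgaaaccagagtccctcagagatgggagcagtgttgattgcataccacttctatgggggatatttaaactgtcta
between genes near Tsc22d3, chrX:140521955-140522155: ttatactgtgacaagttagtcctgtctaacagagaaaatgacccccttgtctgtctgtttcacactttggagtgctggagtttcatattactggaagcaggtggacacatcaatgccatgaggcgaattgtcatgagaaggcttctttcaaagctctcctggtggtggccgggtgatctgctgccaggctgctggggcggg
between genes near Scd1, chr19:44438162-44438362: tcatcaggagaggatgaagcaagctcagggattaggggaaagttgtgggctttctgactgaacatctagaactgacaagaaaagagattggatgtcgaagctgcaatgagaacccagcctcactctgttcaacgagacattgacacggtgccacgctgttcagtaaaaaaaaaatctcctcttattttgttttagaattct
between genes near Gse1, chr8:120484230-120484430: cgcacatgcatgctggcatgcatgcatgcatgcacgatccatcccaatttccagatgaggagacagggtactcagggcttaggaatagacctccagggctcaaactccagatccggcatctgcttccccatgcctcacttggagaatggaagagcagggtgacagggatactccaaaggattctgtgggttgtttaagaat
In the Smad3 window the AP-1 match starts 35 bp and the E-box match 45 bp to the right of the summit. The Pparg window holds an E-box match 80 bp and a C/EBP match 28 bp to the left of its summit, counted to the first base of each match. The Glis1 window holds a C/EBP match 92 bp to the right of the summit, written there on the opposite strand. The Tead1, Myh9 and AU015791 windows each hold 1 E-box match, and the windows near Tsc22d3, Scd1 and Gse1 hold none of the 4 motifs. Over all members, 38.4% (37.5 to 39.3) of the windows hold at least 1 of the 4, against 27.2% (26.6 to 27.8) of windows 5000 bp to either side, so that the windows shown hold matches more often than the members as a whole.

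Most members were weak peaks. The LSD1(OE) list gives each peak a tag count, a score equal to 10 times the −log10 of its p-value, and a fold enrichment over the input. Every member was a single peak, and the members made up 31.7% (31.2 to 32.2) of the 33533 peaks of that list. The members held 30 to 12605 tags with a median of 43, and their scores ran from 50, which is the cut-off of the list, through a median of 68.6 to 984. The lower quartile was 56.3 and the 95th percentile 204, and 3729 members (35.0%) had a score under 60. The distal LSD1(OE) peaks that overlapped a wild-type peak were stronger: the median score was 106 where the myogenic list alone shared the region, 129 where the adipogenic list alone shared it, and 256 at the 6325 regions of all 3 lists. A score of at least 100 was reached by 2716 members, or 25.5% (95% Wilson interval 24.7 to 26.4), against 52.9%, 62.3% and 84.5% of those 3 shared classes. At a score of at least 300 there remained 167 members, or 1.57%, against 43.0% of the regions in all 3 lists. Intervals given here cover counting error only, and tags are not independent molecules.

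**Figure D1:**
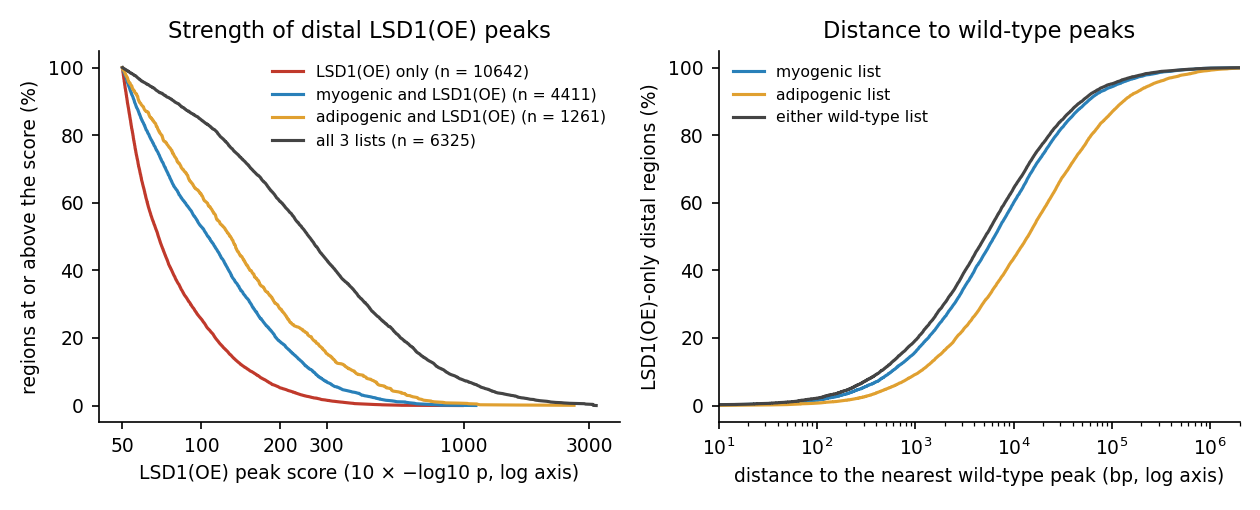
Left, share of distal LSD1(OE) peaks (y axis, percent) at or above each score (x axis, log scale) for regions of the LSD1(OE) list only and for regions shared with the wild-type lists. The curve of the LSD1(OE)-only regions falls fastest, to 25.5% at a score of 100. Right, share of the 10642 LSD1(OE)-only distal regions (y axis, percent) with a wild-type peak within each distance (x axis, bp, log scale). The median distance is 5145 bp to either wild-type list and 13969 bp to the adipogenic list.

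The absence of a wild-type peak depends on what each list could call. The ChIP libraries held 46155625 tags in the myogenic, 63915769 in the adipogenic and 55193310 in the LSD1(OE) condition after filtering, and the smallest peak called held 27, 35 and 30 tags. The smaller ChIP library was scaled up to its input by 1.90, 1.28 and 1.82, and scores divided by this factor are used below as rough unscaled scores. The lists hold 43426, 18893 and 33533 peaks. No tag count is given for a place without a peak, so the wild-type level at the members is unknown. As a yardstick, tag densities were set side by side, in tags per kb of peak for every 1000000 tags of the ChIP library. The members had a median density of 1.04, with quartiles of 0.995 and 1.12. Weak wild-type peaks, those with scores of 50 to 60, had median densities of 1.04 in the myogenic and 0.999 in the adipogenic list. Thus 50.7% of members were denser than the median weak myogenic peak and 72.4% were denser than the median weak adipogenic peak. Above the 95th percentile of weak peaks lay 28.6% of members for the myogenic and 24.6% for the adipogenic list. An unscaled score of at least 50 was kept by 3178 members (29.9%).

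The number of members moved with the call rule more than with the definition of distal. A score of at least 100 asked of the LSD1(OE) list alone left 2716, and the same score asked of all 3 lists gave 4338, since wild-type peaks below that score then no longer removed a region. With equal numbers of the strongest peaks in each list there were 4068. Moving the limit to the TSS to 1000 or 5000 bp gave 11120 or 9512 regions.

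Many members lay beside a wild-type peak without touching it. The nearest peak of either wild-type list was within 1000 bp at 2048 members (19.2%, 18.5 to 20.0) and within 10000 bp at 6838 (64.3%). The myogenic list came closer than the adipogenic list, with median distances of 6392 and 13969 bp, and it also holds more peaks. At 230 members (2.16%) the gap was 100 bp or less, so that these regions were called LSD1(OE)-only by the edges of neighbouring peaks. Conversely, 128 of 11068 LSD1(OE) peaks that did overlap a wild-type peak at distal regions did so by 100 bp or less. Leaving out every member with a wild-type peak within 1000 bp left 8594. The 3 members just inside the limit to the TSS lay 2004 bp from 2310043L19Rik, 2005 bp from Tiam2 and 2007.5 bp from Ptprm, with scores of 75.6, 54.3 and 54.5. The 3 just outside it lay 1997.5 bp from Phlda3, 1993.5 bp from Tha1 and 1991.5 bp from Rnf10, with scores of 50.3, 76.5 and 50.4.

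Among the 10 members with the highest scores, the 2 at the top differ in kind. The first, 15556 bp long with 2244 tags and a score of 984, lay in an intron of Erdr1 on chromosome Y, and its summit window was 100% repeat sequence, where reads cannot be placed with certainty. The second had 248 tags, scored 815 and was enriched 6.00-fold over its input, more than any other member. It lay in an intron of Myh9, which encodes a non-muscle myosin heavy chain, and 4343 bp from the nearest wild-type peak. A region 14.1 kb upstream of AU015791 reached 744 and lay 49684 bp from an adipogenic and 101894 bp from a myogenic peak. It belongs to a group of 7 members within 29.7 kb that contained no other Lsd1 region.

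The other members of the top 10 had scores between 573 and 713. They lay near Gm26698, in introns of Traf3ip3, of Vipr2 (a receptor for vasoactive intestinal peptide) and of Per2 (a repressor of the circadian clock), near Gm30712, near Mir29b-1, which encodes a microRNA of the miR-29 family, and near Col6a2, which encodes a chain of collagen VI. The Col6a2 member, with 154 tags and a score of 578, ended 42 bp from a myogenic and 51 bp from an adipogenic peak. The Gm30712 member, with 155 tags, lay 107 bp from a myogenic peak. Per2 held 162 tags at 18 kb from its TSS, with no wild-type peak within 2201 bp. The member with the most tags, 12605, lay on chromosome 14 near Gm2237 in a window that was 100% repeat, and its fold enrichment over the input was only 0.780.

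In the genome the members spread much as the other Lsd1 regions did. By their centre, 50.5% (49.6 to 51.5) lay between genes and 46.4% (45.4 to 47.3) in introns, 18% of all members being in first introns. Only 1.07% lay in 3′ UTRs and 2.02% in other exons. The assembly outside promoters is 62.7% between genes and 35.1% intron, with 9.71% in first introns. The regions of all 3 lists were at 49.6% between genes and 47.5% intron, and their intervals overlapped those of the members for both. Those of the myogenic list only were at 48.7% (47.9 to 49.4) between genes and 48.1% (47.4 to 48.9) intron. Neither of these intervals overlapped that of the members. First introns were less frequent among the members than among the regions of all 3 lists, at 18% (17.3 to 18.7) against 20.7% (19.7 to 21.7). The regions of the myogenic list only, at 18.7% (18.1 to 19.3), and those shared with it alone, at 19.5% (18.3 to 20.7), had intervals that overlapped that of the members.

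The members lay a median of 28.3 kb from the nearest TSS, against 23.5 kb for the regions of all 3 lists and 25.6 kb for those of the myogenic list only. Within 10 kb of a TSS were 23.2% of members, 43.7% lay at 10 to 50 kb, 17.7% at 50 to 100 kb, 14.6% at 100 to 500 kb and 0.780% farther out. Upstream of the nearest TSS lay 41.6%.

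Chromosome 15 was the most densely covered. It carried 907 members, or 8.72 per Mb, followed by chromosome 11 with 6.45 and chromosome 13 with 5.54 per Mb. Chromosome 7 carried 1.92 per Mb, the lowest of the autosomes, and chromosome X 0.532 per Mb with 91 members. The regions of all 3 lists were also densest on chromosome 15, at 6.70 per Mb, and sparse on X, at 0.123. The number of copies of each chromosome in this line was not tested. Read as a share of the distal LSD1(OE) regions of the same chromosome, the members ran from 42.1% (38.4 to 45.9) on chromosome 7 to 54.9% (52.1 to 57.7) on chromosome 13 among the autosomes, around 47.0% over all chromosomes. Chromosome 13 also carried 20 of the 167 members with a score of at least 300, more than any other chromosome, with 17 on chromosome 1 and 15 on chromosome 12.

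**Figure D2:**
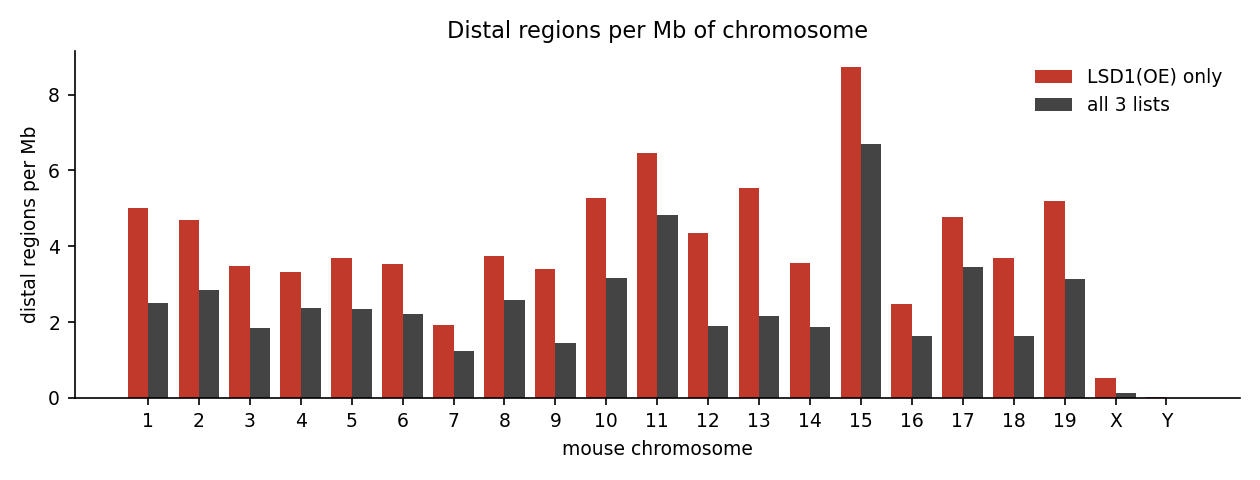
Distal regions per Mb (y axis) on each mouse chromosome (x axis) for LSD1(OE)-only regions and for regions of all 3 lists. Both are highest on chromosome 15, at 8.72 and 6.70 per Mb, and low on X and Y.

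Most members had no other member nearby. When members within 10000 bp of each other were linked, 6689 (62.9%) had no partner, and 66 groups of at least 5 members held 380 of them. Other Lsd1 regions did not count as partners, and 64.3% of members had a wild-type peak within the same distance. Other classes of regions were not linked in this way for comparison. The largest group had 9 members in 41.1 kb near Sik1, a salt-inducible kinase gene whose transcription is known to respond to cAMP, but no score there was above 82.2 and 7 other Lsd1 regions lay among them. A group of 8 members spanned 41.1 kb of Vipr2 with a highest score of 655. Another 8 lay near Rgs2, which encodes a regulator of G protein signalling, and 7 lay in 34.4 kb of Tead1. The groups of 7 near Foxk1 (17.8 kb, highest score 255) and Pid1 (29.5 kb, highest score 162) contained no other Lsd1 region.

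The sequence around the summits was richer in G and C and poorer in repeats than sequence nearby. The windows of the members had a median GC content of 48.8%, against 45.3% in windows 5000 bp to either side of the same summits. More than 50% of the window was repeat in 10.3% (9.78 to 10.9) of members and in 20.6% (20.0 to 21.1) of the flanking windows. The regions of all 3 lists went further in the same direction, with 52.7% GC and 5.11% mostly repeat windows, whereas the 16974 regions of the myogenic list only matched the members in median GC, at 48.8%. The ratio of observed to expected CpG was 0.204 in members, 0.206 in the flanks and 0.255 in the regions of all 3 lists.

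Searched for 16 motifs, the members held the muscle E-box and AP-1 less often than the shared regions and the C/EBP site more often than most of them. The muscle E-box CAGCTG, bound by Myod1 and Myog, was found in 16.7% (16.0 to 17.5) of member windows, in 29.4% (28.3 to 30.5) of regions of all 3 lists and in 9.38% of flanking windows. Regions of a single wild-type list lay nearer the members, at 18.5% (17.9 to 19.1) for myogenic only and 18.6% (16.9 to 20.4) for adipogenic only. The AP-1 site TGANTCA, bound by Fos and Jun dimers, was found in 11.6% (11 to 12.2) of members, 22.1% of regions of all 3 lists, 20.4% of regions shared with the myogenic list alone and 6.33% of flanks. For AP-1 the regions of the myogenic list only were at 14.5% (14.0 to 15.1) and those of the adipogenic list only at 14.9% (13.4 to 16.5). The C/EBP site TTGCNNAA went the other way. It was found in 10.6% (9.98 to 11.2) of members, against 8.54% of regions of all 3 lists, 8.18% of regions shared with the myogenic list alone, 7.64% of regions of the myogenic list only and 8.28% of flanks. Both classes with the adipogenic list and without the myogenic one held it at least as often, 13.9% (12.1 to 15.9) of regions shared by the adipogenic and LSD1(OE) lists and 11.2% of those of the adipogenic list only. Those 2 classes, like the members, hold a peak from adipogenic medium and none from the myogenic list. The part of the medium in these shares was not tested.

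With rising score the E-box share among the members went from 16.0% (score under 100) to 18.1% (100 to under 200) and 22.2% (200 or more), the AP-1 share from 10.7% to 13.7% and 15.9%, and the C/EBP share from 9.68% to 12.9% and 13.9%. At a score of 200 or more, the E-box share of the members, with an interval of 18.9 to 25.8, lay below that of the regions of all 3 lists. The latter were not split by score. The regions shared with the myogenic list alone, at 20.9%, and with the adipogenic list alone, at 22.4%, lay within that interval. The glucocorticoid receptor core ACANNNTGT, searched because the adipogenic medium holds dexamethasone, was in 6.74% (6.28 to 7.23) of members and 6.52% of flanks. At a score of 200 or more it was in 5.42% (3.82 to 7.63).

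**Figure D3:**
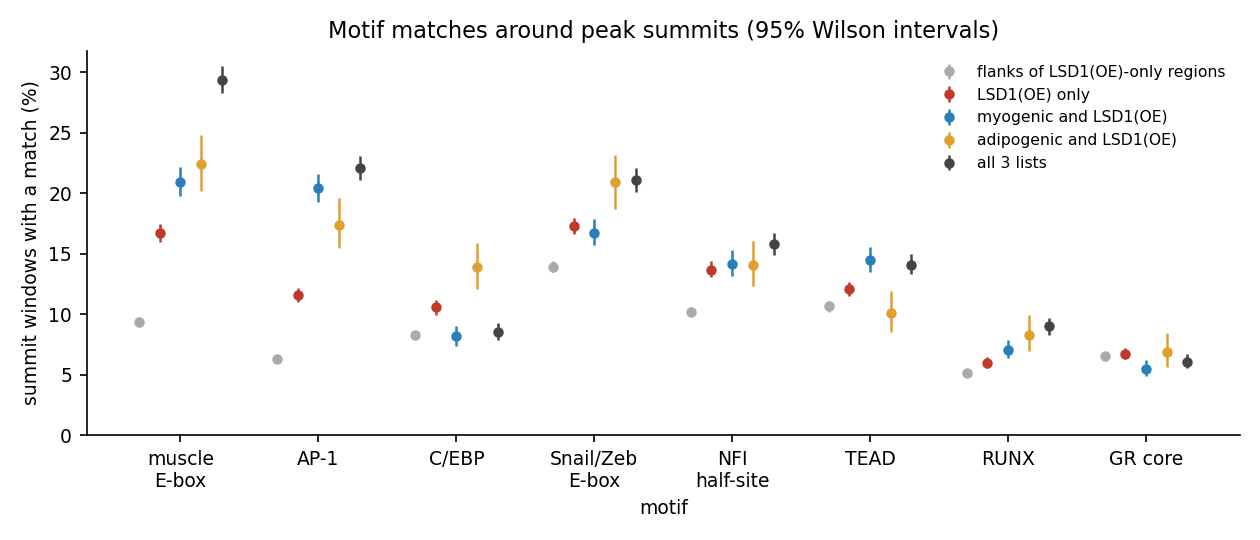
Share of windows of 100 bp on either side of the summit with at least 1 match (y axis, percent) for 8 of the searched motifs (x axis). Points are shares and bars 95% Wilson intervals. LSD1(OE)-only regions hold the E-box in 16.7% and AP-1 in 11.6%, between their flanks and the regions of all 3 lists, and C/EBP in 10.6%, above both.

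Of the remaining motifs, the Snail/Zeb E-box CAGGTG, a site of repressors that bring Lsd1 to DNA, was in 17.3% of members against 13.9% of flanks and 21.1% of regions of all 3 lists. The nuclear factor I site TTGGCA was in 13.7% against 10.2% of flanks, the TEAD site GGAATG in 12.1% against 10.7%, and the RUNX site TGTGGTT in 6.01% against 5.19%. The left arm of the RE1 element, TCAGCACC, bound by Rest, was in 1.5% against 0.893%, and the CTCF core in 0.686% against 0.132%. The MEF2 site was less frequent in members (1.46%) than in flanks (3.58%), and the regions of all 3 lists had 1.45%. The MEF3 site TCANGTTTC (1.10%), the CArG box (0.874%), the PPAR/RXR core AGGTCANAG (1.65%), the Gfi1 site AATCACTGC (0.197%) and the GLI site GACCACCCA (0.207%) were rare. All motifs were searched on both strands, the E-box and the Snail/Zeb E-box cannot match at the same place, and this nuclear factor I site lies within some C/EBP matches. Base composition differs between these windows and was not held fixed, and its part in the motif shares was not tested. A match says nothing about whether a factor was bound.

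Each member was then assigned to its nearest TSS. The members reached 5234 of 26180 genes, or 20.0%. A single member fell to 3079 of these genes, 431 had at least 5 and 62 at least 10. Genes nearest a member are long, with a median transcribed span of 26.0 kb against 11.6 kb for the others, and the part of gene length in the shares below was not tested. They were already neighbours of other Lsd1 regions: 76.6% (75.4 to 77.7) of them also had a distal region with a wild-type peak, against 37.3% of all genes. A Lsd1 peak within 2000 bp of a TSS was listed for 68.5% of them in at least 1 condition, against 51.4% of all genes. In the LSD1(OE) list without either wild-type list it was listed for 4.72% (4.18 to 5.33), against 2.61% of all genes.

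By number of members, Macroh2a3 led with 27, all outside its short transcribed span and up to 538 kb away. Gm20740 on the same chromosome, chromosome 15, had 25. Hdac4, which encodes a class IIa histone deacetylase that restrains Mef2 factors in muscle, had 25, of which the highest score was 249. Within the 252 kb of the Hdac4 gene itself lay 14 members, with 36 to 97 tags. Gm5084 had 21. Pid1, linked to insulin signalling, and Tgfbr3, which encodes the TGF-beta coreceptor betaglycan, had 20 each. The Tgfbr3 gene held 22 members, some of which are nearer to another TSS, at a density of 12 per 100 kb, and Babam2 also held 22.

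The gene lists were those of regulators and effectors of muscle and fat, of hormone response, of Lsd1 partners and of signalling. A distal Lsd1 region of any kind was nearest to 42% (41.4 to 42.6) of all genes, and this share is given beside each list. Genes of the myogenic regulators were nearest a member in 10 of 20 cases (50%, 29.9 to 70.1), while 90% of that list had a distal Lsd1 region of some kind. The strongest member was in an intron of Tead1, a partner of the Yap coactivators at muscle genes, with 110 tags and a score of 348. Within that gene lay 12 members with scores down to 50.3, of which 2 reached a score of 100. Id2, an inhibitor of bHLH factors, had a member 3.12 kb downstream of its TSS with 117 tags and a score of 251. Eya1, a transcriptional coactivator in muscle precursors, had 3 members and reached 124.

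The contractile and muscle effector genes stood close to the background, at 7 of 37 (18.9%, 9.48 to 34.2), and none of the 7 had a member with a score of at least 100. Their highest scores were 94.1 near Myl4 (a myosin light chain), 85.9 near Acta1 (skeletal actin), 61.3 near Mymx (a myoblast fusion peptide) and 57.3 in Myl1. A distal Lsd1 region of some kind was present for 59.5% of this list.

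Of the adipogenic genes, 14 of 29 (48.3%, 31.4 to 65.6) were nearest a member, and 79.3% had a distal region of some kind. Glis1, a zinc finger transcription factor, led this list and is described on its own below. Scd1, a desaturase of fatty acids, had 4 members, the strongest 30.3 kb upstream with 86 tags and a score of 165. Zfp423, a factor of preadipocyte commitment, had a member in its first intron with 62 tags and a score of 152. In Pparg, the central nuclear receptor of adipogenesis and the target of rosiglitazone, a member 2.43 kb from a TSS had 68 tags and a score of 140. The nearest wild-type peak to it was 37569 bp away in the adipogenic and 61788 bp away in the myogenic list.

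Genes of the glucocorticoid and cAMP response, pathways that dexamethasone and isobutylmethylxanthine of the medium switch on, were nearest a member in 12 of 20 cases (60%, 38.7 to 78.1), and 90% had a distal region of some kind. The strongest member of Tsc22d3, the glucocorticoid-induced leucine zipper, had 127 tags and a score of 237 but ended 42 bp from a myogenic peak. Pde4b, a cAMP phosphodiesterase, had 10 members and a highest score of 231. Fkbp5, a cochaperone of the glucocorticoid receptor, had 7 with a highest score of 168, and Zbtb16 reached 164 at a place 239066 bp from the nearest wild-type peak. Both wild-type adipogenic and LSD1(OE) cells received dexamethasone and isobutylmethylxanthine, whose part at these genes was not tested.

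Among Lsd1 complexes and recruiters 9 of 23 (39.1%, 22.2 to 59.2) were nearest a member, and 60.9% had a distal region of some kind. Gse1, a component of BHC-type Lsd1 complexes, reached 281 with 117 tags at 4.49 kb upstream, 488 bp from a myogenic peak. Mta1 of the NuRD complex reached 142, Rcor2, a CoREST paralogue, 136, and Zeb1, a repressor that recruits Lsd1, 134 with 11 members. No member was assigned to Kdm1a itself, and the Kdm1a gene held 1 LSD1(OE) and 2 myogenic peaks.

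The signalling genes of the Notch, Wnt, TGF-beta and IGF pathways were nearest a member in 17 of 31 cases (54.8%, 37.8 to 70.8), and 10 of them had one with a score of at least 100, the most of these 6 lists. The strongest member assigned to Smad3, which carries TGF-beta signals to DNA, scored 357 with 108 tags. It lay in the first intron, 139 bp from a myogenic peak. A stronger member, with 149 tags and a score of 470, lay 98.8 kb into Smad3 but was nearest another TSS. Tcf7l1, a Wnt pathway repressor, reached 286. Notch2, a receptor, reached 216 at 48.0 bp from an adipogenic peak, and Smad6, an inhibitor of BMP signals, reached 175. This list also has the longest genes of the 6, with a median span of 45.9 kb, and 83.9% of it had a distal region of some kind.

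The shares of these lists fell when weak members were left out, as did the share over all genes. With members of a score of at least 100 only, 7.19% of all genes were nearest a member, against 20% of the myogenic regulators, none of the contractile genes, 20.7% of the adipogenic genes, 30% of the glucocorticoid and cAMP response genes, 21.7% of the Lsd1 complexes and recruiters and 32.3% of the signalling genes. With genes taken by transcribed span in place of the nearest TSS, the share was 10.9% of all genes, and in the same order of lists 20%, 5.41%, 24.1%, 40%, 21.7% and 45.2%.

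**Figure D4:**
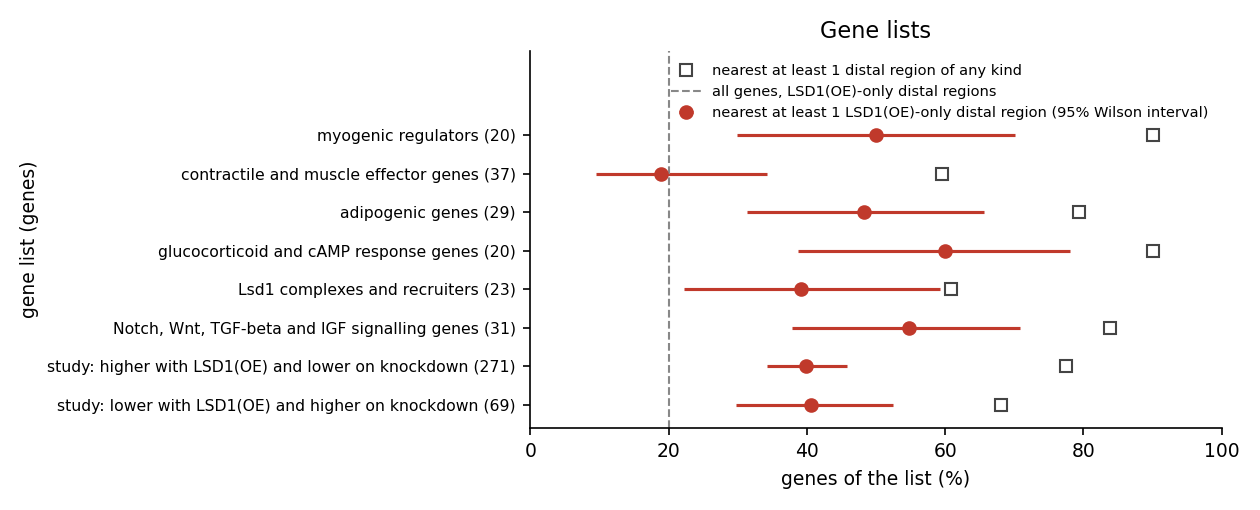
Share of genes (x axis, percent) nearest at least 1 LSD1(OE)-only distal region, with 95% Wilson intervals, and nearest any distal Lsd1 region, for each gene list (y axis, number of genes in brackets). The dashed line is the share of all genes with an LSD1(OE)-only distal region, 20.0%. The contractile list lies at it, at 18.9%, and the other lists lie at 39.1% to 60%.

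The study itself drew up lists of genes whose RNA moved in opposite directions on LSD1 overexpression and on Lsd1 knockdown in C2C12 cells. Their RNA also had to differ between myogenic and adipogenic medium in wild-type cells, so that the lists are not defined by LSD1 alone. These lists came from the same cell system and are not independent of the question, and only their gene names were used. Of the genes higher with LSD1(OE) and lower on knockdown, 108 of 271 (39.9%, 34.2 to 45.8) were nearest a member. Of the genes lower with LSD1(OE) and higher on knockdown, 28 of 69 (40.6%, 29.8 to 52.4) were. Over all genes this share was 20.0%. A distal region of some kind was nearest to 77.5% of the first and 68.1% of the second list, against 42% of all genes. The shares of the 2 lists nearest a member thus lay together in spite of the opposite RNA direction, and the difference between them was not tested. The first list has long genes (median span 59.6 kb) and the second shorter ones (12.8 kb). The highest scores over both lists were 496 at Glis1, 373 near Nefl (a neurofilament chain), 276 in Nmnat2 (an enzyme of NAD synthesis) and 256 nearest Cdc7 (a replication kinase, here inside the neighbouring Tgfbr3) on the list of lower genes, and 316 in Pakap, with 12 members, on the list of higher genes. The study's list names this gene Palm2, and its strongest member lay 118 bp from a myogenic peak.

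Glis1 occupies 200 kb of chromosome 4 (107434719 to 107635059). With a centre in the gene there were 16 LSD1(OE), 6 myogenic and 4 adipogenic peaks, and 9 of the LSD1(OE) peaks were members. These counts include the promoter peak of the LSD1(OE) list only, since the myogenic and adipogenic promoter peaks were centred just before the annotated start. A promoter peak was present in all 3 lists, with scores of 162, 115 and 542, and so was a peak 190 kb downstream, with scores of 570, 451 and 1010. The adipogenic peak at 168 kb, with a score of 243 (191 unscaled), had a counterpart of 670 (367 unscaled) in the LSD1(OE) list. The 9 members had 35 to 196 tags and scores of 52.8 to 496, and 4 of them reached a score of 100.

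The strongest member of Glis1 lay 65.9 kb into the gene, was 2735 bp long and held 196 tags with a fold enrichment of 3.53. It ended 650 bp before a myogenic peak of 40 tags and lay 51502 bp from the nearest adipogenic peak. The member at 194 kb had 73 tags and a score of 159, the one at 18.5 kb had 62 tags and a score of 128, and the one at 159 kb had 64 tags and a score of 123. The member at 187 kb, with 53 tags and a score of 99.3, ended 2 bp from a myogenic peak, so that its place among the members rests on the edges of neighbouring peaks. An unscaled score of at least 50 was kept by 5 of the 9.

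**Figure D5:**
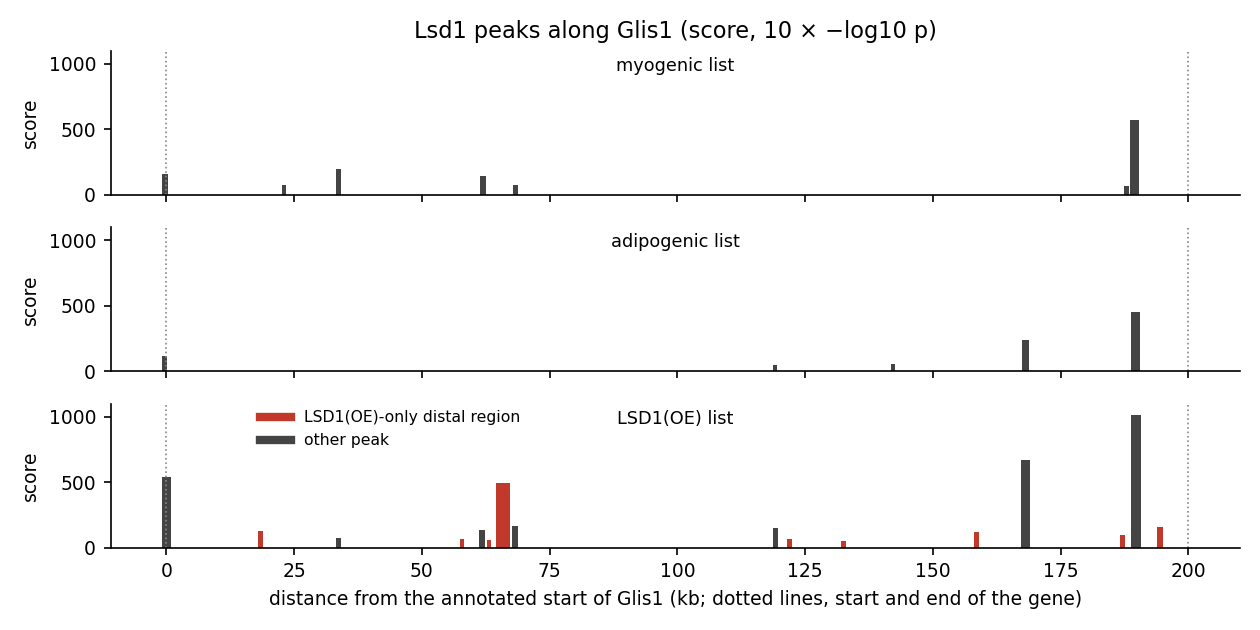
Peaks of the 3 lists along Glis1 by distance from its annotated start (x axis, kb) and score (y axis, same scale in each panel). Scores are as listed, before division by the scaling factor of each library. Red bars are the 9 LSD1(OE)-only distal regions, grey bars other peaks. The tallest red bar, at 65.9 kb, has a score of 496, below the LSD1(OE) peaks at 168 and 190 kb, which have wild-type counterparts.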

How the data were processed

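Lsd1 ChIP-seq and input libraries of 3 conditions, 1 each, were used. Per the labels and the file headers, the authors aligned 50 bp reads to mm10 with Bowtie and called peaks per condition with MACS 1.4.2 (the submitters' processing notes give 1.41) at a p-value cut-off of 1e-05 against the matched input, scaling the smaller library up. The deposited values are tag counts, scores (10 times −log10 p), fold enrichment ratios and FDR in percent. Counts of tags are not molecules.

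From these, peaks sharing at least 1 bp were merged and distances were taken to 31647 TSSs of 26180 genes (curated RefSeq transcripts). Annotation, repeats and windows used the same assembly, whose coordinates are those of mm10. Shares carry 95% Wilson intervals, and no test was made with 1 library per condition. Of the study's gene lists, 271 of 275 and 69 of 74 names matched. Named were the 10 highest-scoring members, the 5 genes with most members, up to 4 genes per list, 5 genes of the study's lists, and Kdm1a. One gene that this rule names is not reported here. Members and lists were chosen with earlier results of these data known. Alternatives changed the score, FDR, scaling, margin and TSS limits, the window and the gene assignment. Merging, distances and the search for 5 of the motifs were tested on simulated data. Python 3 with pandas and NumPy was used.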

Additional observations from a re-analysis of the deposited data

How the results depend on the processing

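The number of distal LSD1(OE)-only regions, 10642, kept within 1.5 times under a 1000 bp margin to wild-type peaks, under summits in place of overlaps, under TSS limits of 1000 and 5000 bp and with all annotated RefSeq transcripts, from 8594 to 12079. It fell to 4338 at a score of at least 100 in all lists, to 2993 at an FDR under 0.1%, to 4068 with equal numbers of strongest peaks (18893 in each list), to 4313 without scaling of tags in all lists, and to 2716 with a score of at least 100 asked of the LSD1(OE) list only. Asking an unscaled score of 50 of the LSD1(OE) list alone, chosen after seeing the data, left 3178. The share in introns, 46.4%, was 47.6% in members with a score of at least 100 and 47.6% in those with an unscaled score of 50. The share of mostly repeat windows, 10.3%, was 8.65% and 8.78% in those members, and 11.9% and 8.49% with 50 and 200 bp on either side of the summit. The muscle E-box share, 16.7%, was 19.0% and 18.4% in those members and 8.87% and 28.0% in those windows. A longer window holds more matches by its length, and flanks of those lengths were not searched. The genes nearest a member, 5234, were 1882 and 2136 for those members, and 2859 by transcribed span. The shares of the gene lists moved most: at a score of at least 100 the 5 lists with a member left ran from 20% to 32.3%, against 39.1% to 60% with all members, while the share of all genes went from 20% to 7.19%. Of the other shares, these included, 57 alternatives stayed within the interval of the value reported and 70 did not. Motif shares must change with window length, and list shares cannot rise when members are left out. These counts are therefore no measure of how stable the shares are. With 1 library per condition, no replicate could be left out. No paired analysis was possible because each condition has 1 ChIP library and no test was made.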

Other observations

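Some strong members lay far from any wild-type peak. They were chosen after their values were seen. A member in an intron of Elmo1, which encodes a regulator of cell migration and engulfment, had 175 tags and a score of 499, with the nearest wild-type peak 491497 bp away. One in an intron of Nmnat3, which encodes a mitochondrial enzyme of NAD synthesis, had 139 tags, scored 546 and was enriched 4.55-fold, with the nearest wild-type peak 224119 bp away. One in an intron of Alpl, which encodes alkaline phosphatase, had 127 tags and a score of 484 at 33872 bp from a wild-type peak. By contrast, the member near Socs1, an inhibitor of cytokine signalling, with a score of 560, lay 108 bp from a myogenic peak. The third member by tags, near Mir6546, had 1060 tags but a fold enrichment of 1.84.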
